A study of Homo sapiens with 28 samples.

Results

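Of 23222 human regions with a peak of H3K27me3, the trimethylation of lysine 27 of histone H3, 3207 (13.8%) were present in both libraries of the T-cell leukaemia line Jurkat and in neither library of the T-cell leukaemia line Loucy. They are called the Jurkat-held regions here. The peaks of 4 libraries, 2 per line, were merged into a union on chromosomes 1 to 22, X and Y of the human build hg38. A library held a region when its own peaks covered at least 10% of it. The regions were thus chosen by the H3K27me3 peak positions of these same libraries, and their H3K27me3 values are given below as a description with no test.

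H3K27me3 is written by the Polycomb repressive complex PRC2, whose catalytic subunit is EZH2, and is found over genes that are kept silent. H3K27ac, the acetylation of the same lysine, is found at active promoters and enhancers. The marks exclude each other on a single histone tail, so a stretch of chromatin carrying both in one library holds either different tails or different cells. Loss of PRC2 function is a recurrent event in T-cell acute lymphoblastic leukaemia, above all in its early T-cell precursor form, for which Loucy is a commonly used model line.

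The series joined chromatin immunoprecipitation sequencing of bone marrow from mice with and without mutations in Ezh2, Runx1 and Flt3 to that of the 2 human lines. Marrow came from 5 DKOITD mice, with floxed Ezh2 and Runx1, Cre expressed from Rag1, and the Flt3 internal tandem duplication allele, and from 3 WT mice, with the same floxed alleles and no Cre, whose marrow was enriched for Kit; it serves here only to show depth. The human samples were Jurkat and Loucy cells without treatment, grown in serum-supplemented medium, with 2 libraries per line for each mark. The labels do not say whether replicates 1 and 2 were separate cultures, so their spread may be technical. Each line stands for 1 leukaemia, and a difference between the lines cannot be told apart from a difference between these 2 cultures. Regions are given by position because no human gene annotation was used here. The identity of the lines was for the same reason not checked against marker genes.

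The Loucy H3K27me3 peak lists were nearly empty, which bears on every statement about absence below. There were 16687 peaks in JURKAT1 and 10199 in JURKAT2, against 189 in LOUCY1 and 200 in LOUCY2. Sequencing depth was 9209392 and 12261421 fragments in the Jurkat libraries, and 5974153 and 3900279 in the Loucy libraries. The plot of peaks against depth also shows 8 mouse H3K27me3 libraries of the series, which had 2766339 to 6411696 fragments and 1891 to 25557 peaks. Peak strength differed by measure. The median fold enrichment over local background was 3.71 in JURKAT1 and 3.79 in JURKAT2, against 2.47 in LOUCY1 and 2.93 in LOUCY2. The median −log10 q was 1.38 and 1.42 in the Jurkat lists, against 4.02 and 4.50 in the Loucy lists. Peaks with a −log10 q of at least 5 numbered 24 and 23 in Jurkat, fewer than the 70 and 86 in Loucy. The long Jurkat lists were thus made almost wholly of weak peaks. The estimated share of fragments in H3K27me3 peaks was 4.72% and 2.66% in Jurkat, against 1.39% and 1.51% in Loucy. The median pileup, the fragment coverage averaged over a peak, was 5.71 and 6.83 in Jurkat, against 52.8 and 39.2 in Loucy. The Loucy peaks were thus lower in fold but higher in pileup and −log10 q.

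**Figure D1:**
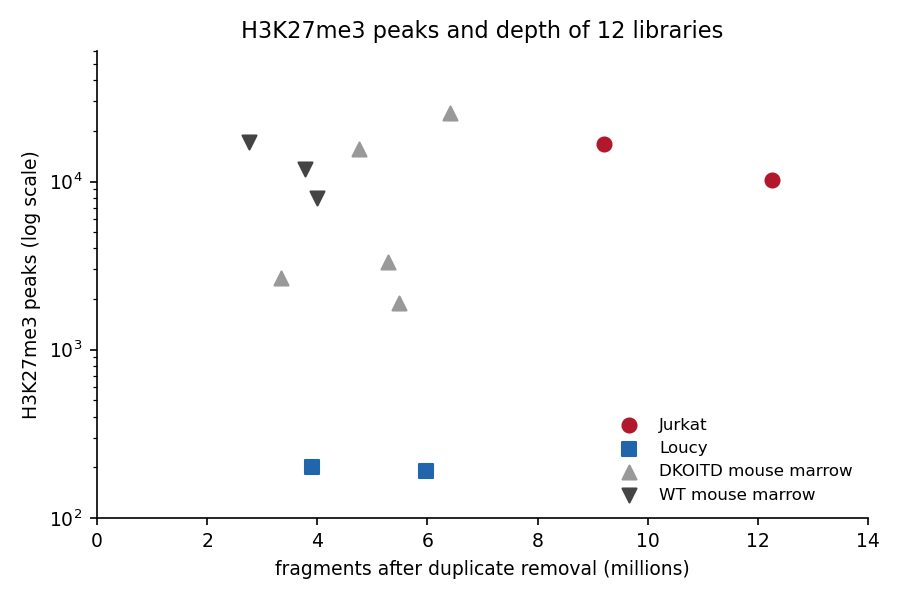
H3K27me3 peaks per library (log scale) against sequencing depth in fragments for 2 Jurkat, 2 Loucy and 8 mouse libraries. The Loucy libraries, at 189 and 200 peaks, sit below every other library plotted.

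The Loucy peaks gathered in a few places. On the main chromosomes they made 161 regions of 0.229 Mb in all, and 86 of these lay in 5 runs of regions less than 1 Mb apart. The largest runs held 27 regions on chromosome 4 (49091414 to 49711869) and 18 on chromosome 10 (41859269 to 42085638). Both Loucy libraries held 104 regions, and at least 1 Jurkat library also held 58 of these. The absence of a Loucy peak is for these reasons not a measurement of absent H3K27me3. The part of sequencing depth in the short Loucy lists was not tested.

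The Loucy criterion removed little. Both Jurkat libraries held 3252 regions, of which 3207 (98.6%) were Jurkat-held and the other 45 were held by all 4 libraries. No Jurkat-held region had a single base under a Loucy H3K27me3 peak. The Jurkat lists themselves overlapped in part: JURKAT1 held 16465 regions and JURKAT2 held 9910, so the Jurkat-held regions were 19.5% and 32.4% of these lists. Another 13206 regions were held by JURKAT1 alone and 6648 by JURKAT2 alone. Called from a single Jurkat library and both Loucy libraries, the set would have had 10044 regions without JURKAT1 and 16520 without JURKAT2.

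The median length of the Jurkat-held regions was 1365 bp, with quartiles of 900.5 and 2095 bp, the shortest at 216 bp and the longest at 13701 bp. There were 1001 regions under 1 kb, 1323 of 1 to 2 kb, 844 of 2 to 5 kb and 39 over 5 kb. Regions held by 1 Jurkat library were shorter, with medians of 430 bp for JURKAT1 alone and 389 bp for JURKAT2 alone. Merging of peaks from both libraries lengthens a shared region by construction, so this gap is in part fixed by the rule. Together the Jurkat-held regions spanned 5.25 Mb of the 16.2 Mb in the union.

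**Figure D2:**
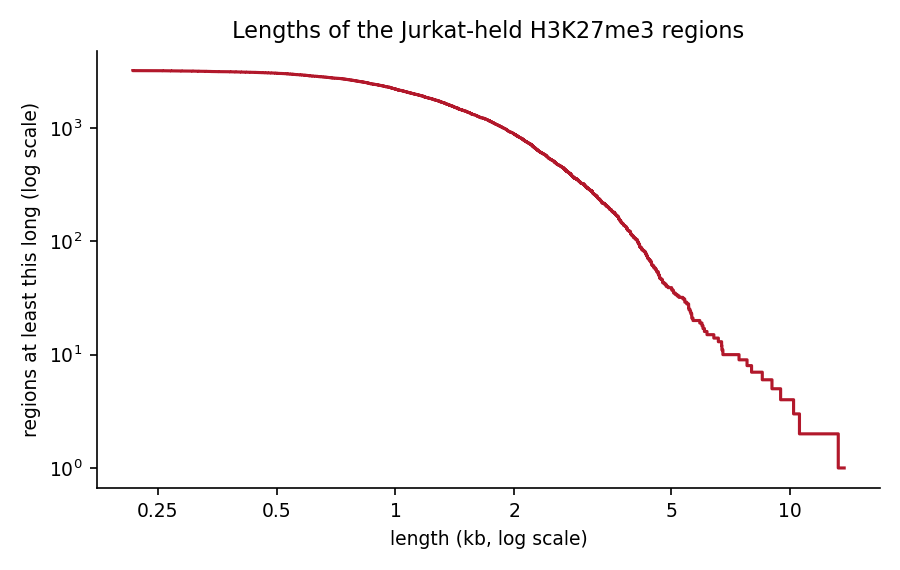
Number of Jurkat-held regions at least as long as the length on the x axis (kb), both axes on log scales. The curve steepens beyond 1 kb, and 39 regions exceed 5 kb.

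The Jurkat libraries covered these regions broadly but with limited overlap. Peaks covered a median of 80.2% of a region in JURKAT1 and 65.9% in JURKAT2, and 1560 regions were covered over at least 50% of their length in both. The bases under peaks of both libraries came to 2.09 Mb, or 39.8% of the summed length. In 3 regions the peaks of JURKAT1 and JURKAT2 shared no base. Just inside the 10% limit, 3 regions had 10.04%, 10.06% and 10.14% in their less covered Jurkat library, the first of them on chromosome 22 (49079366 to 49081237). Just outside it, 3 had 9.996%, 9.952% and 9.884%, the first on chromosome 20 (36949987 to 36952377).

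Enrichment was low in both Jurkat libraries. The strongest peak in a Jurkat-held region had a median fold enrichment over local background of 3.82 in JURKAT1 and 3.82 in JURKAT2, and a median −log10 q of 1.53 and 1.52. Both are peak values from the authors' caller. Regions held by 1 library were close to that, at a fold of 3.71 for JURKAT1 and 3.79 for JURKAT2. The Jurkat-held regions took up 427 of the 1000 strongest peaks of JURKAT1 and 509 of the 1000 strongest of JURKAT2. The share over all peaks of each list was not counted, and these peaks also chose the regions. The counts thus cannot be read as a trait of the Jurkat-held regions. A −log10 q of at least 2 in both libraries was reached by 179 regions, and one of at least 5 by 3 regions.

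The longest regions were covered to different extents by the Jurkat libraries. The longest lay on chromosome 1 (18634610 to 18648310), where peaks covered 12990 bp in JURKAT1 and 10527 bp in JURKAT2 of 13701 bp. The next, on chromosome 20 (48503399 to 48516634), had 13196 bp and 12106 bp covered of 13236 bp. Another on chromosome 1 (2652286 to 2662840) spanned 10555 bp, with 9317 bp and 6300 bp covered. Its H3K27me3 pileup was 24.1 in JURKAT1 and 37.4 in JURKAT2, at folds of 3.11 and 3.02. The strongest peak of a Jurkat-held region had a median pileup of 6.22 and 7.31, at a median fold of 3.82 in both. Why this region differed was not tested. Among the 10 longest, the lowest cover was that of JURKAT2 on chromosome 1 (3199977 to 3207958), where peaks lay over 6476 bp in JURKAT1 and 2713 bp in JURKAT2 of 7982 bp. None of the first 3 had a base under an H3K27ac peak in any Jurkat or Loucy library.

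Many Jurkat-held regions had another within 50 kb. Joined at gaps of up to 50 kb, the 3207 regions fell into 1869 groups, and 1307 regions (40.8%) had no neighbour that close. Groups of at least 5 numbered 84 and held 714 regions (22.3%). The same grouping was not counted over all union regions, so it cannot be read as a trait of the Jurkat-held regions. The largest groups were picked out after their sizes were seen. The first, on chromosome 1 (2652286 to 3424352), held 58 regions of 140.4 kb in all. The next, on chromosome 17 (79093466 to 79538098), held 36 regions of 73.5 kb in all. These 36 regions had no base under an H3K27ac peak in any library, and the sequence between them was not counted.

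The chromosome 1 group showed both marks in different lines. Marks were counted over its 58 regions and not over the sequence between them. H3K27me3 peaks covered 114 kb of these regions in JURKAT1 and 70.2 kb in JURKAT2. H3K27ac peaks covered 0 kb of them in either Jurkat library, against 5.77 kb in LOUCY1 and 8.67 kb in LOUCY2. In 5 of its 58 regions H3K27ac was called in both Loucy libraries and neither Jurkat library.

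H3K27ac was not used to choose the regions, but the choice was not neutral between the lines. The regions had to carry H3K27me3 in Jurkat, and the marks exclude each other on a single tail. The choice itself thus favours less H3K27ac in Jurkat, and its part in the contrasts below was not tested. The H3K27ac lists were of similar size in all 4 libraries. There were 32665 peaks in JURKAT1 and 28877 in JURKAT2, against 30300 in LOUCY1 and 40305 in LOUCY2. Depth was also alike, at 11329731 and 11828122 fragments in Jurkat and 12521211 and 11773660 in Loucy. The estimated share of fragments in H3K27ac peaks was 43.8% and 39.7% in Jurkat, against 21.4% and 35.0% in Loucy. A region was counted as acetylated in a library when its H3K27ac peaks covered at least 200 bp of it, or the whole of a shorter region.

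In none of the 4 libraries were 2841 of the 3207 Jurkat-held regions (88.6%) acetylated, a smaller share than the 97.3% of regions held by 1 Jurkat library. Acetylation was found in 64 regions in JURKAT1 (2.0%) and 51 in JURKAT2 (1.59%), against 231 in LOUCY1 (7.20%) and 310 in LOUCY2 (9.67%). Both Loucy libraries were above both Jurkat libraries. The mean share was 1.79% ± 0.287 in Jurkat and 8.43% ± 1.74 in Loucy (SD, n = 2 each), a difference of −6.64 percentage points for Jurkat minus Loucy. With the regions and both marks called without JURKAT1 it was −2.94, and without JURKAT2 −2.46. The two-sided exact permutation test over the 6 assignments of the libraries gave p = 0.333, the smallest that 2 libraries against 2 allow, so the design cannot pass a threshold of 0.05.

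The difference was also present in bases. H3K27ac peaks covered 40.0 kb of Jurkat-held sequence in JURKAT1 and 35.2 kb in JURKAT2, against 249 kb in LOUCY1 and 356 kb in LOUCY2. LOUCY1 had less H3K27ac territory genome-wide (43.9 Mb) than JURKAT1 (48.8 Mb) or JURKAT2 (45.2 Mb), while LOUCY2 had more (64.1 Mb). As a share of each library's own territory, 0.0820% and 0.0778% fell in Jurkat-held regions in Jurkat, against 0.568% and 0.555% in Loucy. The mean share of Jurkat-held bases under H3K27ac was 0.716% ± 0.0647 in Jurkat and 5.77% ± 1.43 in Loucy (SD, n = 2 each; exact permutation p = 0.333).

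**Figure D3:**
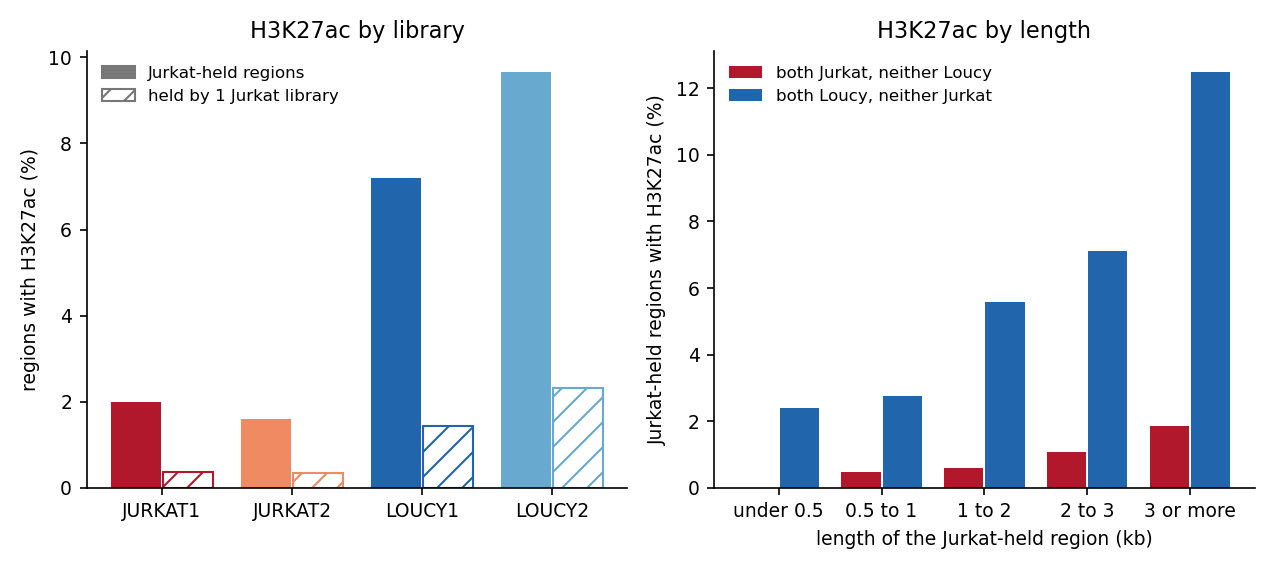
Left, percent of regions carrying H3K27ac in each library, for Jurkat-held regions (filled bars) and regions held by 1 Jurkat library (hatched); right, percent of Jurkat-held regions with H3K27ac in both libraries of 1 line and neither of the other, by length. Jurkat-held regions stand at 2.0% and 1.59% in the Jurkat libraries and at 7.20% and 9.67% in the Loucy libraries, and from 3 kb the shares on the right are 1.87% and 12.5%.

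Regions held by 1 Jurkat library leaned the same way at lower levels. They carried H3K27ac in 0.378% of cases in JURKAT1 and 0.337% in JURKAT2, against 1.43% in LOUCY1 and 2.33% in LOUCY2. The excess of Jurkat-held regions over them was 1.44 ± 0.258 percentage points in Jurkat and 6.56 ± 1.10 in Loucy (SD, n = 2 each; exact permutation p = 0.333). In proportion to the shares, this excess was similar in both lines. The paired shares were 2.0% and 0.378% in JURKAT1, and 1.59% and 0.337% in JURKAT2. In Loucy they were 7.20% and 1.43% in LOUCY1, and 9.67% and 2.33% in LOUCY2. Jurkat-held regions were also longer. In the 1 to 2 kb class alone, H3K27ac in both Loucy and neither Jurkat library was found in 5.59% of Jurkat-held regions and 2.29% of those held by 1 Jurkat library.

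Per region, the 2 directions were unequal, as they also were over all union regions. Both Jurkat libraries were acetylated in 39 Jurkat-held regions (1.22%, where the background over all 23222 union regions was 0.461%), and both Loucy libraries in 215 (6.70%, background 2.09%). H3K27ac in both Jurkat and neither Loucy library was found in 24 Jurkat-held regions (0.748%), where the background was 0.189%. H3K27ac in both Loucy and neither Jurkat library was found in 181 (5.64%), where the background was 1.70%. Over all union regions the same 2 calls numbered 44 and 394, and over regions held by 1 Jurkat library 20 and 213. The inequality was thus not particular to the Jurkat-held regions. All 4 libraries were acetylated in 15 Jurkat-held regions. Counts of either kind depend on single libraries. Without JURKAT2, which changed the set to 16520 regions as well as the acetylation call, the 24 became 59 and the 181 became 335, while the shares fell to 0.357% and 2.03%. Without JURKAT1, with 10044 regions, 27 (0.269%) and 237 (2.36%) were called. Without LOUCY1 the 181 became 274 (8.54%). They depend on peak strength as well, since with H3K27ac peaks of −log10 q of at least 5 alone 6 and 94 regions were called.

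Seen from the H3K27ac side, largely the same overlaps were counted again, so these counts are no separate support for the contrast. Of 61099 H3K27ac union regions, 357 met a Jurkat-held region by at least 200 bp, a background of 0.584%. Among the 7624 H3K27ac regions of both Jurkat and neither Loucy library, 25 (0.328%) met one. Among the 8251 of both Loucy and neither Jurkat library, 173 (2.10%) did. Of the 13477 present in all 4 libraries, 38 (0.282%) did. H3K27ac regions of Loucy alone were longer than those of Jurkat alone, with medians of 1691 and 1224.5 bp, which favours such meetings. Per Mb of H3K27ac region, 9.04 of Loucy alone and 1.92 of Jurkat alone met a Jurkat-held region.

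H3K27ac in Loucy peaked at the centres of the Jurkat-held regions. In the first 1 kb bin past the centre, 0.837% of bases in JURKAT1 and 0.787% in JURKAT2 were under H3K27ac peaks, against 4.15% in LOUCY1 and 5.93% in LOUCY2. At 5.5 kb from the centre the values were 0.409% and 0.469% in Jurkat, against 2.13% and 3.25% in Loucy. At 29.5 kb they were 1.09% and 0.948% in Jurkat, against 2.07% and 3.09% in Loucy. The Loucy curves thus fell away from a central maximum, while the Jurkat curves were lower at 5.5 kb than at the centre or at 29.5 kb. Over regions held by 1 Jurkat library the central bin had 0.284% and 0.255% in Jurkat, against 1.20% and 1.87% in Loucy.

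**Figure D4:**
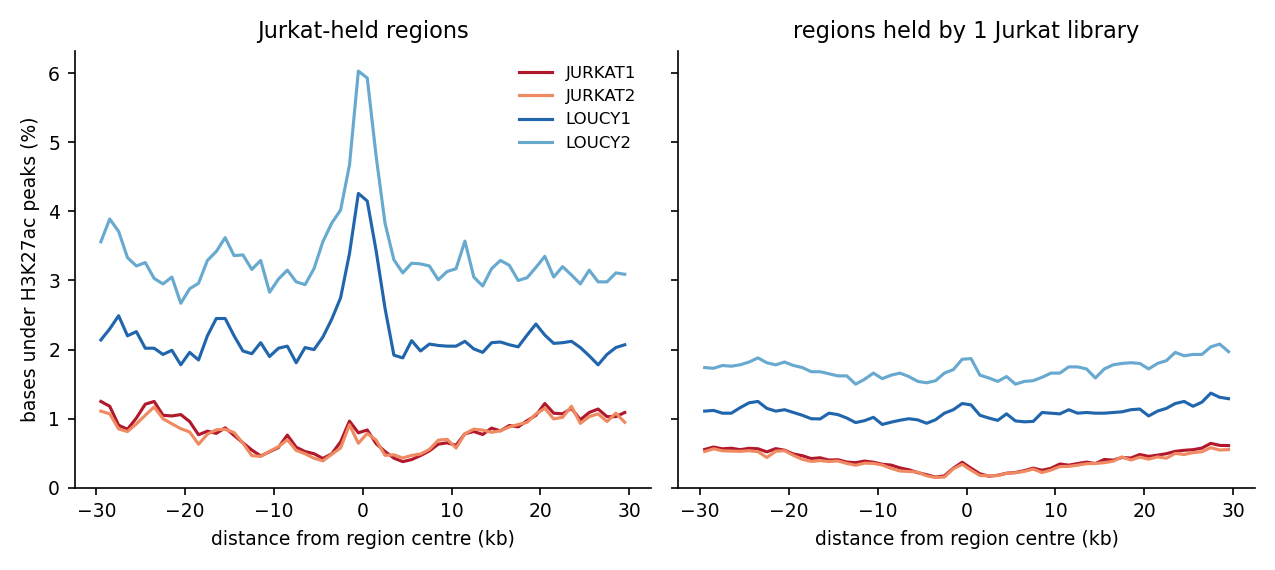
Percent of bases under H3K27ac peaks in 1 kb bins by distance (kb) from the centre of Jurkat-held regions and of regions held by 1 Jurkat library, one line per library. Over the Jurkat-held regions the Jurkat lines stand at 0.837% and 0.787% just past the centre, below Loucy lines of 4.15% and 5.93%.

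H3K27ac also lay closer to the Jurkat-held regions in Loucy, as it did to regions held by 1 Jurkat library. A peak within 5 kb was found for 221 regions in JURKAT1 and 197 in JURKAT2, against 506 in LOUCY1 and 646 in LOUCY2. The shares were 6.89% and 6.14% in Jurkat, against 15.8% and 20.1% in Loucy; for regions held by 1 Jurkat library they were 2.61% and 2.45% in Jurkat, against 6.71% and 9.24% in Loucy. The mean share of Jurkat-held regions was 6.52% ± 0.529 in Jurkat and 18.0% ± 3.09 in Loucy (SD, n = 2 each; exact permutation p = 0.333). The median distance to the nearest H3K27ac peak was 85218 bp in JURKAT1 and 89782 bp in JURKAT2, against 54463 bp in LOUCY1 and 42976 bp in LOUCY2. For regions held by 1 Jurkat library it was 138816 bp and 150554 bp in Jurkat, against 112378 bp and 99582 bp in Loucy. In every library the median was lower for the Jurkat-held regions.

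By length class, longer Jurkat-held regions more often carried H3K27ac in 1 line alone. The fixed 200 bp of the acetylation call is easier to reach in a longer region, so a rise with length is in part set by the rule. In the Jurkat direction the share was 0% under 0.5 kb, 0.479% at 0.5 to 1 kb, 0.605% at 1 to 2 kb, 1.07% at 2 to 3 kb and 1.87% from 3 kb. In the Loucy direction it was 2.41%, 2.75%, 5.59%, 7.12% and 12.5% over the same classes. Regions held by 1 Jurkat library had 0.0524%, 0.139%, 0.229%, 0% and 4.35% in the Jurkat direction, the last being 1 of 23 regions, with no steady order by length. They had 0.839%, 1.05%, 2.29%, 3.72% and 8.70% in the Loucy direction, the last being 2 of 23 regions. The class from 3 kb held 321 Jurkat-held regions, of which 6 were acetylated in Jurkat alone and 40 in Loucy alone.

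Stronger H3K27me3 in Jurkat went with more H3K27ac in Loucy. Regions were graded by the −log10 q of their strongest peak in the weaker Jurkat library. Below 1.5, 78 of 2155 (3.62%) were acetylated in both Loucy and neither Jurkat library. Between 1.5 and 2 this was 69 of 873 (7.90%), and from 2 upward 34 of 179 (19.0%). In the Jurkat direction the shares were 0.650%, 0.916% and 1.12% over the same grades. Median length was 1210, 1724 and 2477 bp over these grades. Among regions of at least 2 kb alone the Loucy shares were 4.43%, 10.8% and 20.0%, so the order was also present there.

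The 181 regions acetylated in Loucy alone had a median length of 1837 bp, and the 24 acetylated in Jurkat alone one of 1950 bp. Regions with no H3K27ac had 1315 bp, a gap that the fixed 200 bp of the acetylation call in part sets. In the 181 regions H3K27ac covered a median of 55.9% of the length in LOUCY1 and 72.4% in LOUCY2. The stretch acetylated in both Loucy libraries ended inside the region in 53 cases, ran past 1 end in 87 and ran past both ends in 38. Both Loucy libraries had the whole region under H3K27ac peaks in 38 cases, with lengths of 228 to 4904 bp. The remaining 3 regions had no base shared by the Loucy libraries.

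These Loucy peaks ranked above the middle of their lists. The regions needed H3K27ac in both Loucy libraries and the strongest peak was taken, so this is in part fixed by the rule. The strongest H3K27ac peak in the 181 regions had a median −log10 q of 4.31 in LOUCY1, where the whole list had 2.67, and of 6.52 in LOUCY2, where the whole list had 2.66. The median peak stood at percentile 67.3 of the LOUCY1 list and 77.1 of the LOUCY2 list. For the 24 regions of the Jurkat direction the percentiles were 53.2 in JURKAT1 and 44.5 in JURKAT2. For the 15 regions acetylated in all 4 libraries they were 80.8 in LOUCY1 and 87.6 in LOUCY2, against 47.5 in JURKAT1 and 41.3 in JURKAT2. A Jurkat H3K27ac peak lay within 5 kb of 30 of the 181 regions (16.6%), and of 126 of the 2841 regions with no H3K27ac (4.44%).

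Where a Jurkat library carried both marks, they often lay over the same bases. In JURKAT1, 61 of 64 acetylated regions had a base under peaks of both marks, 34.5 kb in all. In JURKAT2 this was 44 of 51 regions and 22.7 kb. These bases made up 86.4% of the H3K27ac bases of Jurkat-held regions in JURKAT1 and 64.5% in JURKAT2. The regions were chosen for H3K27me3 in Jurkat, so this overlap is in large part fixed by the rule. H3K27me3 peaks covered a median of 80.2% of a Jurkat-held region in JURKAT1 and 65.9% in JURKAT2. Peaks of a bulk sample do not tell whether the same cells carried both marks.

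In single regions the extent of the marks varied. The region on chromosome 17 (79840236 to 79845139), of 4904 bp, had H3K27me3 peaks over 4904 bp in JURKAT1 and 4191 bp in JURKAT2 and over 0 bp in both Loucy libraries. H3K27ac covered 0 bp of it in both Jurkat libraries, against all 4904 bp in LOUCY1 and in LOUCY2, at folds of 5.47 and 6.79. It was the longest region wholly acetylated in both Loucy libraries.

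The longest region acetylated in Loucy alone was only partly so. On chromosome 16 (49853491 to 49862481), H3K27me3 peaks covered 8991 bp in JURKAT1, the whole region, and 5143 bp in JURKAT2. H3K27ac covered 0 bp in both Jurkat libraries, against 1866 bp in LOUCY1 and 1370 bp in LOUCY2. A region on chromosome 11 (69637304 to 69643458) had 6114 bp and 5775 bp of H3K27me3 in JURKAT1 and JURKAT2, and 937 bp and 1691 bp of H3K27ac in LOUCY1 and LOUCY2. One on chromosome 1 (922442 to 928113) had 5317 bp and 5672 bp of H3K27me3 in the Jurkat libraries, and 1537 bp and 2041 bp of H3K27ac in the Loucy libraries. On chromosome 12 (48001325 to 48006176) the Jurkat libraries differed, with 4852 bp of H3K27me3 in JURKAT1 and 1390 bp in JURKAT2, and H3K27ac covered 1737 bp in LOUCY1 and 3258 bp in LOUCY2.

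The smallest cover among the 10 longest was on chromosome 3 (55484326 to 55489957). H3K27me3 covered 4916 bp of it in JURKAT1 and 2162 bp in JURKAT2, and H3K27ac 361 bp in LOUCY1 and 339 bp in LOUCY2. Across these 10 regions neither Loucy library had a base of H3K27me3 and neither Jurkat library a base of H3K27ac.

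In the Jurkat direction, the longest region lay on chromosome 11 (114057718 to 114061878) and spanned 4161 bp. H3K27me3 covered 2651 bp of it in JURKAT1 and 3396 bp in JURKAT2, and H3K27ac 1464 bp and 1878 bp in the same libraries, with 0 bp of either mark in Loucy. On chromosome 20 (18055256 to 18059409), H3K27me3 covered 3959 bp and 2954 bp and H3K27ac 849 bp and 864 bp in JURKAT1 and JURKAT2. These regions thus held both marks within a single line.

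**Figure D5:**
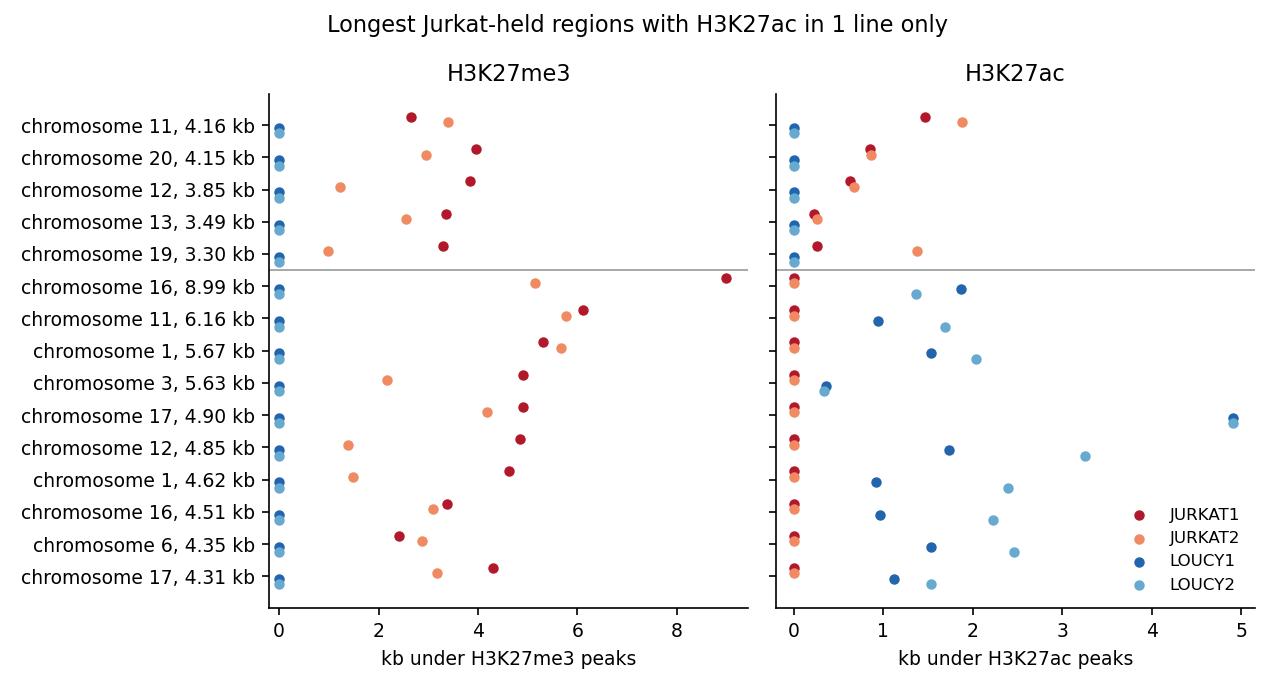
Kilobases under H3K27me3 peaks (left) and H3K27ac peaks (right) in each library, for the 5 longest Jurkat-held regions with H3K27ac in Jurkat alone (above the line) and the 10 longest with it in Loucy alone (below). The 4.90 kb region on chromosome 17 is the only one of these wholly under H3K27ac in both Loucy libraries.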

How the data were processed

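H3K27me3 and H3K27ac peak lists of 8 human libraries (JURKAT1, JURKAT2, LOUCY1 and LOUCY2 for each mark) were used. Cells were fixed in 1% formaldehyde for 10 min, per the labels' protocols. Bowtie2 2.2.5, MACS2 2.0.10 and the build hg38 are named in the submitters' processing notes. Broad peaks were called per library with MACS 2.0.10.20131216 at a q cutoff of 0.05 against the input of replicate 2 of the same line, per the file headers. For each peak the authors deposited the pileup (a fragment coverage signal), the fold (a ratio to local background) and the −log10 of the q-value. Drosophila chromatin was added but its reads were not used, per the labels, so no absolute level of a mark is given. Depth is given as the fragments named in the file headers. A shallow library can miss weak peaks.

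Within each library, peaks that overlapped were joined and cover was counted in bases (Python 3.11.15, numpy 2.4.6, pandas 2.3.3). Pileup times peak length, over fragment size and depth, gave an estimate of the share of fragments in peaks. Interval code was tested on simulated data. Libraries were compared by a two-sided exact permutation test over 6 assignments. Named regions were the 10 longest Jurkat-held, the 10 longest acetylated in Loucy alone, the 5 longest acetylated in Jurkat alone, and 3 on either side of the 10% limit, of which the text gives examples; region groups and Loucy runs were picked out after their values were seen. The members and lists were chosen with earlier results of these data known. Planned counts of genes were not run, because no human gene annotation was used here. The replicate numbers were not treated as pairing the samples.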

Additional observations from a re-analysis of the deposited data

Results flagged for a closer look

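Peaks on contigs outside chromosomes 1 to 22, X and Y were not used above, and their share of the H3K27me3 lists differed by line. They made up 0.581% of the peaks in JURKAT1 and 0.775% in JURKAT2, against 28.0% in LOUCY1 and 28.0% in LOUCY2. The counts behind these shares were 97 and 79 peaks in Jurkat, against 53 and 56 in Loucy. The Loucy shares are those of far shorter lists, and their cause was not tested.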

How the results depend on the processing

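The number of Jurkat-held regions (3207), their length (5.25 Mb) and the counts acetylated in Jurkat alone (24) and Loucy alone (181) moved with the settings below; the cause was not tested. Held at 50% cover they were 1560 regions, 2.57 Mb, 13 and 115. With all peaks at −log10 q of at least 5 they were 3 regions, 0.0125 Mb, 0 and 0, and with 136 H3K27me3 peaks per library, as in the shortest list, 12 regions, 0.0377 Mb, 0 and 0; in both the difference in acetylated share was 0. Joining peaks within 3 kb gave 13.6 Mb. Among settings chosen after seeing the data, a −log10 q of at least 2 gave 178 regions, 0.468 Mb, 2 and 33, and H3K27ac alone at 5 or more gave 6 and 94. Leaving out each replicate gave 10044 regions without JURKAT1 and 16520 without JURKAT2, so the lowest was 3207 and the highest 16520, with 5.25 to 11.4 Mb, 24 to 59 and 197 to 335 acetylated, and a difference of −7.87 to −2.46 percentage points. Not using the Loucy H3K27me3 lists at all gave 3268 regions, 5.31 Mb, 24 and 181. With the replicate number as a block the difference was −6.64 (exact permutation p = 0.5, the smallest that 4 arrangements allow). The block changed no call. The H3K27ac deviations of same-numbered libraries had r = −0.0677 over 23222 regions. Of the regions held by 1 Jurkat library, 97.3% had no H3K27ac in any library, so a shared batch could go unseen. The planned gene counts were not run because no human gene annotation was used here. The part of depth in the short Loucy H3K27me3 lists was not tested.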

Other observations

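One chromosome stood out after the values were seen, and no test was run on it. On chromosome 9, 23 of 167 Jurkat-held regions (13.8%) were acetylated in both Loucy and neither Jurkat library, against 5.64% of all Jurkat-held regions. Over all union regions of chromosome 9 the same call was made for 43 of 977 (4.40%), where the whole union had 1.70%. On chromosome 13 none of 91 Jurkat-held regions had it.

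Chromosome 1 held 389 Jurkat-held regions, 12.1% of them, where it held 10.5% of the union. Chromosome 17 held 193 (6.02%, where it held 4.62% of the union), and chromosome 18 held 35 (1.09%, where it held 2.06%). Chromosome X held 11 and chromosome Y none.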
